A study of Sus scrofa with 24 samples.

Results

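Angiotensinogen (AGT) and 4 further genes of the renin-angiotensin system were followed through the adipogenic culture of pig fat cell precursors. The genes were chosen by symbol from the table of expression values: AGT, the receptors AGTR1 and AGTR2, and the peptidases ACE and LNPEP, which made 5 of the 25462 genes in the table. Of these, 4 were among the 16135 genes tested (summed level over all libraries above 1 FPKM, a fragment count divided by transcript length and library size), and AGTR2 fell below that limit.

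Angiotensinogen is a secreted protein of the serpin family and the only known precursor of the angiotensins. Angiotensin I is cut from it, angiotensin-converting enzyme (ACE) trims angiotensin I to angiotensin II, and angiotensin II acts through the AT1 receptor (AGTR1) and the AT2 receptor (AGTR2), while aminopeptidases such as LNPEP shorten the peptides further. Fat tissue is a known source of angiotensinogen outside the liver, and a local renin-angiotensin system has been described in it.

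The cells were preadipocytes of 6-day-old Yorkshire piglets, isolated from back subcutaneous fat (BF) or from digested longissimus dorsi muscle of the back (intramuscular, IMF). Each depot was sampled on days 0, 2, 4 and 8 with 3 replicates, giving 8 groups (BF-0d to IMF-8d) and 24 mRNA libraries. No group carried a genetic change. Day 0 cells had not yet been induced, and the later groups of both depots shared the same schedule, which began with IBMX, dexamethasone and insulin, went on with insulin alone and ended in growth medium, so that day of culture and medium cannot be told apart. The methods name 3 piglets, but nothing ties a replicate to a piglet, and the p-values therefore measure only the spread between these samples, which may be technical.

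The library totals ran from 307967 to 385768 FPKM and 9985 to 10858 genes reached 1 FPKM in a library. The read depth was unknown, since the values kept no counts. The labels call the cells adipocytes, and the adipocyte markers were mixed. LPL (lipoprotein lipase) had a mean of 2.22 FPKM in BF-0d and 422 in BF-8d, and of 1.06 in IMF-0d and 120 in IMF-8d, while ADIPOQ (adiponectin) reached at most 0.230 FPKM and PLIN1 (the perilipin coat of lipid droplets) at most 0.0773 FPKM in any library. The study also stained the cultures for lipid, which was not analysed here. The 7 immune and macrophage markers summed to 3.20 to 18.9 FPKM in a library, with 5.4 to 6.92 in BF-0d, 8.15 to 13.1 in BF-8d, 6.55 to 7.51 in IMF-0d and 8.04 to 10.4 in IMF-8d. Most of that was CD14, while LYZ was listed at 0 in every library and the leukocyte marker PTPRC and the macrophage receptor CSF1R reached at most 0.00835 and 0.0581 FPKM. The part of these markers in the results was not tested. Replicate 3 of BF-2d stood apart from the other two BF-2d libraries in several genes below. For the 4 tested members, the calls that turned on it are given with and without it, and the other genes were not refitted without it.

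The AGT gene (ENSSSCG00000010184) lies on the plus strand at chr14:59643030-59656835 of Sscrofa11.1 and has 5 exons in the RefSeq annotation. AGT was also one of the genes that the study picked from these samples for qRT-PCR, so its rise here is not independent of that choice. The study's primer pair is printed to show which part of the transcript it reads, with capitals marking the 9 bases of the forward primer that lie in exon 3 (the other 11 lie in exon 2).
AGT-F: gcacttccaagGAAAGGTGA
AGT-R: cgacactgaggtggtgttgt
The reverse primer lies wholly in exon 3, at chr14:59652823-59652842 on the minus strand. Both lie in coding sequence, and the product spans 82 bases of the transcript against 3534 bases of the genome.

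The 250 bases upstream of the annotated start are printed for AGT and AGTR1, which had opposite signs over day 0 to day 8, from the RefSeq annotation of Sscrofa11.1. Capitals mark matches to the motifs searched on both strands.
AGT promoter, chr14:59642780-59643029, plus strand: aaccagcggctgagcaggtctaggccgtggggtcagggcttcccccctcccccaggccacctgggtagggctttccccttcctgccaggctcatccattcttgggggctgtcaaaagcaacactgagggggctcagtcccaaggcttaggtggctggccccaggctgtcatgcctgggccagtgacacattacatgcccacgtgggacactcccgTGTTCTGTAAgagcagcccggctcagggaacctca
AGTR1 promoter, chr13:88934623-88934872, plus strand: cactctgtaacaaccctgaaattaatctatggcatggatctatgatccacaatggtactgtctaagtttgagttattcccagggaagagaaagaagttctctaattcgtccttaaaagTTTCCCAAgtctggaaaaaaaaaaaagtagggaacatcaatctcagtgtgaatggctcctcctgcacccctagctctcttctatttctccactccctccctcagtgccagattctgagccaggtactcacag
The motifs were TATAAA (held by 9.8% of 19556 promoters of this length), TTNNGNAA (C/EBP, 31.7%), TGTTCT (glucocorticoid receptor half-site, 10.3%), GGGANNTTC (NF-kappaB, 4.6%), TTCNNNGAA (STAT, 6.1%) and AGGTCA (nuclear receptor half-site, 12.2%). The AGT window held TGTTCT at position -35 and, overlapping it, TTNNGNAA at -33. The AGTR1 window held TTNNGNAA at -132. The GC content was 63.2% for AGT and 43.2% for AGTR1, against a median of 57.6% over all promoters. A match is a description of letters, not of a bound site.

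In BF cells AGT stayed near its starting level to day 2 and then climbed in 2 steps. Its levels were 3.42, 3.33 and 2.99 FPKM in the BF-0d libraries and 3.78, 3.56 and 2.31 FPKM in the BF-2d libraries, and these groups overlapped. On day 4 they were 14.1, 30.2 and 32.4 FPKM, with replicate 1 low, and on day 8 they were 108, 87.4 and 88.9 FPKM. Every BF-4d library lay above every BF-2d library, and every BF-8d library above every BF-4d library. On the log2(FPKM + 1) scale the first step, day 2 to day 4, measured 2.59 (SE 0.213, limma adjusted p = 2.06e-07). The second, day 4 to day 8, measured 1.93 (adjusted p = 4.28e-06). A fit restricted to the 6 libraries of each comparison called neither (adjusted p = 0.106 and 0.0413). Here and below a gene was called when its limma p, adjusted over all genes tested, was under 0.01 and its log2 difference was at least 1 in size.

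In IMF cells the whole rise fell in the last interval. AGT was listed at 1.74, 1.44 and 2.39 FPKM on day 0, at 0.761, 0.880 and 0.720 FPKM on day 2, and at 0.918, 0.679 and 0.947 FPKM on day 4. It then reached 35.4, 30.0 and 31.0 FPKM on day 8. The day 8 libraries lay above all other IMF libraries, while the day 2 and day 4 libraries overlapped. The mean was 37.9 times higher on day 8 than on day 4 (log2 difference 4.16, adjusted p = 2.35e-11). The change from day 0 to day 2 was -0.66 and was not called (adjusted p = 0.061), although those groups did not overlap.

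Over the whole culture AGT was 29.2 times higher on day 8 than on day 0 in BF and 17.3 times higher in IMF. The depot difference in the change, the IMF log2 change minus the BF log2 change, was -2.54 for day 2 to day 4 (adjusted p = 5.54e-05) and 2.24 for day 4 to day 8 (adjusted p = 3.76e-05), both called. Over day 0 to day 8 it was -0.94 (adjusted p = 0.0338), short of the call. The BF mean was 4.09 times the IMF mean on day 2, 30.2 times on day 4 and 2.95 times on day 8, and all 3 differences were called. The day 2 call was lost with only the compared libraries fitted (adjusted p = 0.0174). The day 0 difference, -0.58, missed the call (adjusted p = 0.0756), although the groups did not overlap.

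Ranked by mean, AGT was highest in BF-8d (94.7 ± 11.4 FPKM, SD, n = 3), then in IMF-8d (32.1 ± 2.90) and BF-4d (25.6 ± 9.98), which overlapped each other. BF-0d, BF-2d and IMF-0d followed at 3.24, 3.22 and 1.86 FPKM, each overlapping its neighbour in that order, and IMF-4d and IMF-2d came last at 0.848 and 0.787 FPKM, also overlapping. As these are bulk samples, fewer cells making AGT and less AGT RNA per cell cannot be told apart. The summed level of the 10 adipocyte markers went from 10.8 to 12.6 FPKM in BF-0d to 282 to 623 in BF-8d, and from 4.78 to 5.39 in IMF-0d to 99.2 to 144 in IMF-8d. Most of that sum on day 8 was LPL. Without LPL, a sum added after seeing the data, the other 9 markers came to 9.22 to 10.3 FPKM in BF-0d and 5.88 to 12.5 in BF-8d, and to 3.6 to 4.21 in IMF-0d and 3.41 to 5.55 in IMF-8d, so that days 0 and 8 overlapped in both depots. The part of either sum in the AGT result was not tested.

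**Figure D1:**
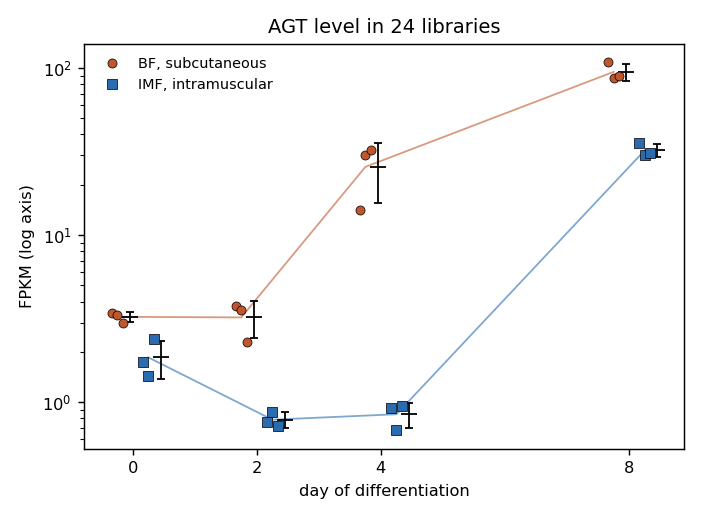
AGT level in FPKM (log axis) against day of differentiation, 1 point per library, with BF as circles and IMF as squares. Black marks give the mean and SD of 3 libraries and lines join the means. BF libraries leave the low range by day 4 (14.1 to 32.4 FPKM) and IMF libraries only on day 8 (30.0 to 35.4 FPKM).

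ACE, the enzyme that makes angiotensin II and also degrades bradykinin, differed between the depots until day 4 and then rose in IMF. The gene (ENSSSCG00000017296) lies on the minus strand at chr12:15394487-15414609. In BF its levels were 4.38, 4.60 and 5.12 FPKM on day 0 and 7.68, 7.26 and 7.53 FPKM on day 8. Between these days the BF libraries spread widely, at 7.11, 5.35 and 1.96 FPKM on day 2 and 6.52, 8.14 and 2.10 FPKM on day 4, with replicate 3 low on both. No BF interval was called, and the change from day 0 to day 8 was 0.58 (adjusted p = 0.131).

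In IMF, ACE stood at 1.05, 0.801 and 1.47 FPKM on day 0 and at 0.362, 0.631 and 0.555 FPKM on day 2. It was 0.588, 0.517 and 0.655 FPKM on day 4 and 11.9, 12.3 and 13.7 FPKM on day 8, when every library lay above all other libraries of either depot. The rise from day 4 to day 8 was 21.5-fold in the means (log2 difference 3.10, SE 0.309, adjusted p = 2.94e-07). IMF cells were lower than BF cells by 1.44 on day 0 (adjusted p = 0.00285), 1.82 on day 2 (adjusted p = 2.93e-04) and 1.91 on day 4 (adjusted p = 5.04e-05), all on the log2 scale. On day 8 the difference had the other sign, 0.68, and was not called (adjusted p = 0.0919). The depot difference in the change was called for day 4 to day 8 (2.60, adjusted p = 3.45e-04) and for day 0 to day 8 (2.13, adjusted p = 0.00201). The day 0 depot call was lost in 5 of the 24 fits that left out 1 library (any BF-0d library, or replicate 1 or 2 of IMF-0d, at values from -1.48 to -1.34), and the day 2 depot call was lost with only the compared libraries fitted (adjusted p = 0.0428).

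Other enzymes that can release angiotensins ranged from near 0 to abundant. KLK1 (tissue kallikrein) was listed at 0 in all libraries but 1, at 0.103 FPKM. CTSD and CTSB, lysosomal cathepsins that can cut angiotensinogen in vitro, were far higher: CTSD group means ran from 119 to 222 FPKM with no call in any comparison, and CTSB rose in IMF from 235 FPKM on day 0 to 605 FPKM on day 8 (log2 difference 1.34, adjusted p = 6.06e-05). ATP6AP2, an accessory protein of the vacuolar proton pump that also takes part in this system, ranged from 30.5 to 57.6 FPKM and was not called. Of 9 listed enzymes, 6 had a row and 4 were tested.

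AGTR1, the receptor that carries most known actions of angiotensin II, was lower on day 8 than on day 0 in both depots. The gene (ENSSSCG00000011695) lies on the plus strand at chr13:88934873-88980317. In BF its levels were 11, 12.4 and 11.8 FPKM on day 0 and 1.28, 1.29 and 5.98 FPKM on day 2, with replicate 3 high. They were 1.54, 1.21 and 0.530 FPKM on day 4 and 1.88, 1.07 and 1.35 FPKM on day 8. The day 0 libraries lay above all later BF libraries. On the log2 scale AGTR1 changed by -1.94 between days 0 and 2 (SE 0.285, adjusted p = 3.91e-05). Between days 0 and 8 it changed by -2.40 (adjusted p = 9.03e-07). In the intervals in which AGT rose in BF, AGTR1 was not called, at -0.70 for day 2 to day 4 (adjusted p = 0.0818) and 0.24 for day 4 to day 8 (adjusted p = 0.63). Without replicate 3 of BF-2d the change between days 0 and 2 was -2.48, and with only the compared libraries fitted the call for that change was lost (adjusted p = 0.030).

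In IMF, AGTR1 was called in no interval before day 4 and fell in the last one. It was 7.25, 8.15 and 7.52 FPKM on day 0 and 6.43, 4.35 and 5.27 FPKM on day 2. On day 4 it was 6.48, 6.75 and 7.18 FPKM, and on day 8 0.362, 0.535 and 0.431 FPKM. The day 8 libraries lay below all other IMF libraries, and the change from day 4 to day 8 was -2.44 (adjusted p = 2.12e-06). On day 4 AGTR1 was 6.22 times higher in IMF than in BF (log2 difference 1.93, adjusted p = 1.91e-05). The depot difference in the change from day 4 to day 8 was -2.67 (adjusted p = 1.2e-04).

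On day 2 the AGTR1 depot difference of 0.92 was not called (adjusted p = 0.0217), and without replicate 3 of BF-2d it was 1.46 and called (adjusted p = 2.48e-06). The same held for the depot difference in the change from day 0 to day 2, at 1.48 (adjusted p = 0.0206) with that library and 2.02 (adjusted p = 5.16e-06) without it. On day 8 the difference was -0.74 (adjusted p = 0.0473), and it was called with a pseudocount of 0.1 (-1.48, adjusted p = 0.00724). The summed level of the 8 mural and smooth muscle markers, most of it ACTA2 on day 0, went from between 1712 and 1817 FPKM in BF-0d to between 194 and 228 in BF-8d, and from between 1865 and 2321 in IMF-0d to between 367 and 385 in IMF-8d. Without ACTA2, a sum added after seeing the data, the other 7 came to 162 to 184 FPKM in BF-0d and 190 to 216 in BF-8d, and to 163 to 192 in IMF-0d and 183 to 195 in IMF-8d. RGS5, one of these 7, had a mean of 1.16 FPKM in IMF-0d and 69.6 in IMF-8d. On day 4, when AGTR1 was higher in IMF, the 8 mural markers summed to 1250 to 1286 FPKM in IMF and 204 to 309 in BF, and without ACTA2 to 142 to 157 in IMF and 197 to 287 in BF. The 8 myogenic markers summed to 10.1 to 13.2 FPKM in IMF-4d and 0.0752 to 0.119 in BF-4d, nearly all of it DES (desmin) in IMF-4d, with MYF5 and MYOD1 listed at 0 in every library and PAX7 at most 0.00683 FPKM. The stromal progenitor markers summed to 8435 to 8614 FPKM in IMF-4d and 2686 to 4191 in BF-4d. Without COL1A1, a sum added after seeing the data, the other 4 came to 4016 to 4288 in IMF-4d and 2160 to 3222 in BF-4d. The part of these sums in the AGTR1 results was not tested.

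AGTR2 (ENSSSCG00000012600, chrX:95267709-95272237, minus strand), which often opposes the AT1 receptor, was listed at 0 in every library except replicate 1 of IMF-2d, at 0.114 FPKM. MTUS1, which encodes a protein that binds the AT2 receptor, was lower in IMF than in BF on days 0 and 4 (log2 differences -1.13 and -1.67). It rose in BF between days 2 and 4 (1.25, adjusted p = 6.01e-05), and in IMF its last interval, day 4 to day 8, brought a rise (1.17, adjusted p = 2.85e-05). NR3C2, the mineralocorticoid receptor, averaged at most 0.0596 FPKM in any group.

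LNPEP, an aminopeptidase that shortens several peptides and is also known as the binding site of angiotensin IV, had its group means within a narrow range, from 5.31 to 10.9 FPKM. The gene (ENSSSCG00000014173) lies on the plus strand at chr2:103568366-103659589. In BF its levels were 10.7, 11 and 10.5 FPKM on day 0 and 6.78, 1.6 and 7.54 FPKM on day 2, with replicate 2 low. They were 8.46, 8.66 and 5.83 FPKM on day 4 and 8.77, 10.3 and 10.5 FPKM on day 8. IMF libraries ranged from 5.53 to 11.6 FPKM over all days, and each group overlapped its neighbour in rank. The fall of 1.08 from day 0 to day 2 in BF was its single call (SE 0.298, adjusted p = 0.00902), and it was -0.53 and not called without replicate 2 of BF-2d (adjusted p = 0.0532). With the replicate number as a block the call was lost (adjusted p = 0.0136). It was kept in 2 of 8 alternative settings and in 5 of the 24 fits that left out 1 library. The day 2 depot difference of 1.10 missed the threshold (adjusted p = 0.0108) and was 1.40 and called without replicate 3 of BF-2d (adjusted p = 0.00132); it was called in 4 of the 24 such fits. Without replicate 2 of BF-2d it was 0.55 and not called (adjusted p = 0.0622). The depot difference in the change from day 0 to day 2 was 1.35 (adjusted p = 0.0381). It became a call without replicate 3 of BF-2d, at 1.66 (adjusted p = 0.00584), and without replicate 2 it was 0.80 and not called.

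**Figure D2:**
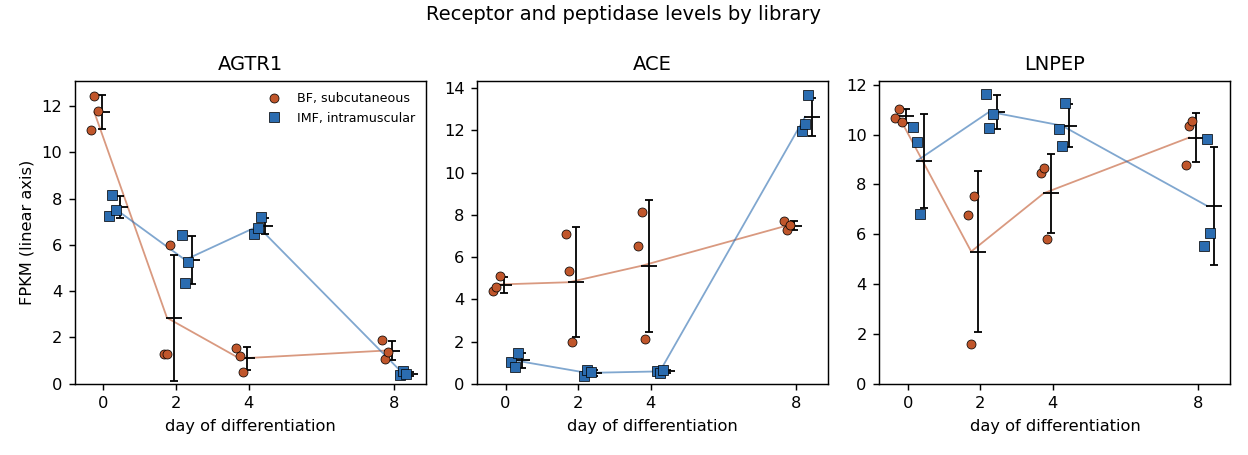
AGTR1, ACE and LNPEP levels in FPKM (linear axes that start at 0) against day of differentiation, 1 point per library, with BF as circles, IMF as squares, and black marks for the mean and SD of 3 libraries. AGTR1 drops by day 2 in BF and by day 8 in IMF, ACE reaches 11.9 to 13.7 FPKM in IMF-8d, and LNPEP overlaps between most groups.

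Among the other peptidases that trim angiotensins, ANPEP (aminopeptidase N) rose in IMF from 32.1 FPKM on day 0 to 124 FPKM on day 8 (log2 difference 1.91, adjusted p = 3.07e-06) and was higher in IMF than in BF on days 4 and 8 (1.39 and 1.32). CTSA, a lysosomal carboxypeptidase, was higher in IMF than in BF on day 8 (1.08, adjusted p = 3.72e-07). THOP1, NLN, PREP, PRCP and DPP3 were tested and called in no comparison. ENPEP, which makes angiotensin III, averaged at most 0.156 FPKM, and MME (neprilysin) at most 0.383 FPKM. All 11 listed genes had a row and 9 were tested.

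Counted by comparison, 2 of the 4 tested members were called for BF day 0 to day 2, where 6.59% of all genes tested were called, and one of these was the LNPEP call that the replicate block did not keep. For BF day 2 to day 4 it was 1 member against 3.35% of genes, and for BF day 4 to day 8 it was 1 against 2.93%. Over BF day 0 to day 8 it was 2 against 13.7% (6.28% higher and 7.39% lower). In IMF 0 members were called for day 0 to day 2 (0.787% of genes) and for day 2 to day 4 (0.0372%), 3 for day 4 to day 8 (7.25%), and 3 for day 0 to day 8 (9.04%, with 4.56% higher and 4.49% lower). Between depots 1 member was called on day 0 (2.58%), 2 on day 2 (4.74%), 3 on day 4 (11.3%, with 6.6% higher and 4.72% lower in IMF) and 1 on day 8 (6.96%). For the depot difference in the change, 0 members were called for day 0 to day 2 (2.45%), 1 for day 2 to day 4 (3.06%), 3 for day 4 to day 8 (6.39%) and 1 for day 0 to day 8 (4.98%). AGT was called with a positive log2 difference in 6 of 16 comparisons and with a negative one in 4. These counts include depot differences in the change, whose sign is not that of a level, and intervals that overlap.

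FPKM is a level per transcript length, so AGT and AGTR1 can be set against each other within a library. The ratio of AGT to AGTR1 was 0.254 to 0.311 in BF-0d and 0.177 to 0.318 in IMF-0d. It was 0.386 to 2.96 in BF-2d and 9.16 to 61.2 in BF-4d, while IMF-2d (0.118 to 0.202) and IMF-4d (0.101 to 0.142) lay below 1. On day 8 the ratio was 57.4 to 81.8 in BF and 56.1 to 98.0 in IMF. The depots thus overlapped in this ratio on days 0 and 8 and did not on days 2 and 4.

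**Figure D3:**
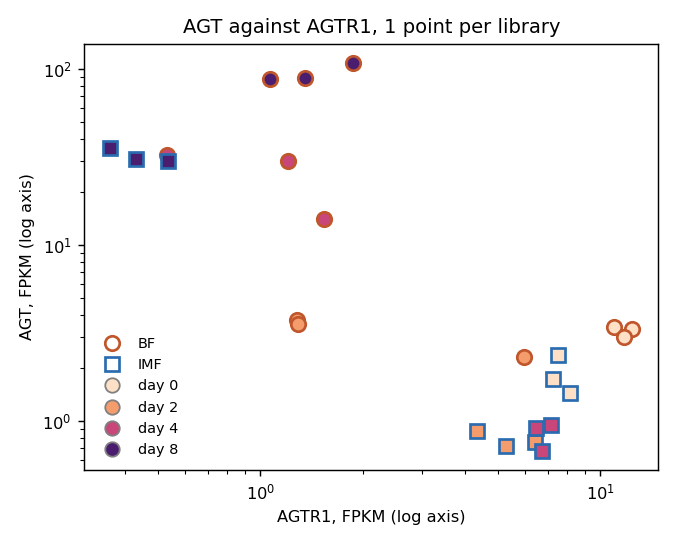
AGT against AGTR1, both in FPKM on log axes, 1 point per library, with depot as shape and day as fill. The day 8 libraries of both depots lie at high AGT and low AGTR1, and the IMF libraries of days 2 and 4 lie at low AGT and high AGTR1.

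Across the wider angiotensin system (28 listed genes with AGT, 22 in the table and 16 tested), AGT was called higher and AGTR1 lower over BF day 0 to day 8, and 14 were not called, where 13.7% of all genes were called. The median log2 difference of the 16 genes was -0.18, against -0.06 over all genes tested. Over IMF day 0 to day 8, 5 genes rose (AGT, ACE, CTSB, ANPEP and MTUS1), AGTR1 fell and 10 were not called, with a median of 0.04 against -0.05 and 9.04% of all genes called. In IMF against BF on day 4, 2 were higher, 3 lower and 11 not called, where 11.3% of all genes were called.

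**Figure D4:**
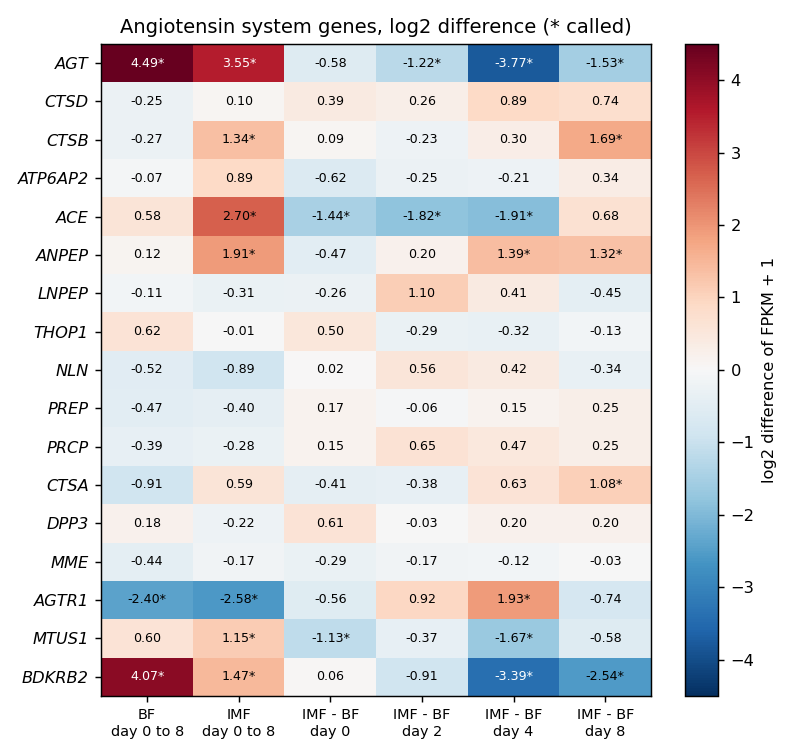
Log2 differences of FPKM + 1 for the tested angiotensin system genes and BDKRB2 (rows) in 6 comparisons (columns), with an asterisk where the gene was called. AGT and AGTR1 carry opposite signs over day 0 to day 8 in both depots, and ACE is 2.70 and called over that span in IMF and 0.58 and not called in BF.

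ACE also inactivates bradykinin, and the bradykinin receptor BDKRB2 rose in both depots. Its group mean was 0.125 FPKM in BF-0d, 1.6 in BF-2d, 12.9 in BF-4d and 18.0 in BF-8d, against 0.169 in IMF-0d and 2.26 in IMF-8d. The log2 difference from day 0 to day 8 was 4.07 in BF (adjusted p = 2.77e-09) and 1.47 in IMF (adjusted p = 8.1e-04), and the depot difference in the change was -2.59 (adjusted p = 3.9e-04).

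Of 14 tested genes that couple to or limit the AT1 receptor, 6 were called higher and 0 lower over BF day 0 to day 8 (median 0.61 against -0.06 over all genes, of which 6.28% were higher and 7.39% lower), and 5 higher and 0 lower over IMF day 0 to day 8 (median 0.41 against -0.05, with 4.56% of all genes higher and 4.49% lower). The G proteins GNAQ, GNA11 and GNA13 were not called in any comparison. RGS2, which shortens Gq signalling, averaged 0.469 FPKM in BF-0d, 90.0 in BF-2d and 13.1 in BF-8d, and in IMF it rose from 1.87 on day 4 to 109 on day 8 (log2 difference 5.30, adjusted p = 3.06e-06). RGS4 and RGS5, of the same family, rose in IMF over that interval by 4.27 and 3.60 on the log2 scale. RGS5 is also a mural cell marker, and the RGS2 BF-2d libraries spread from 12.1 to 129 FPKM. GRK5, a receptor kinase, rose by 1.52 in BF and 1.5 in IMF over day 0 to day 8, and ARRB1 (beta-arrestin 1) by 2.01 and 1.29. PLCB1, the phospholipase downstream of Gq, rose in BF (1.63, adjusted p = 2.91e-06) and was not called in IMF.

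**Figure D5:**
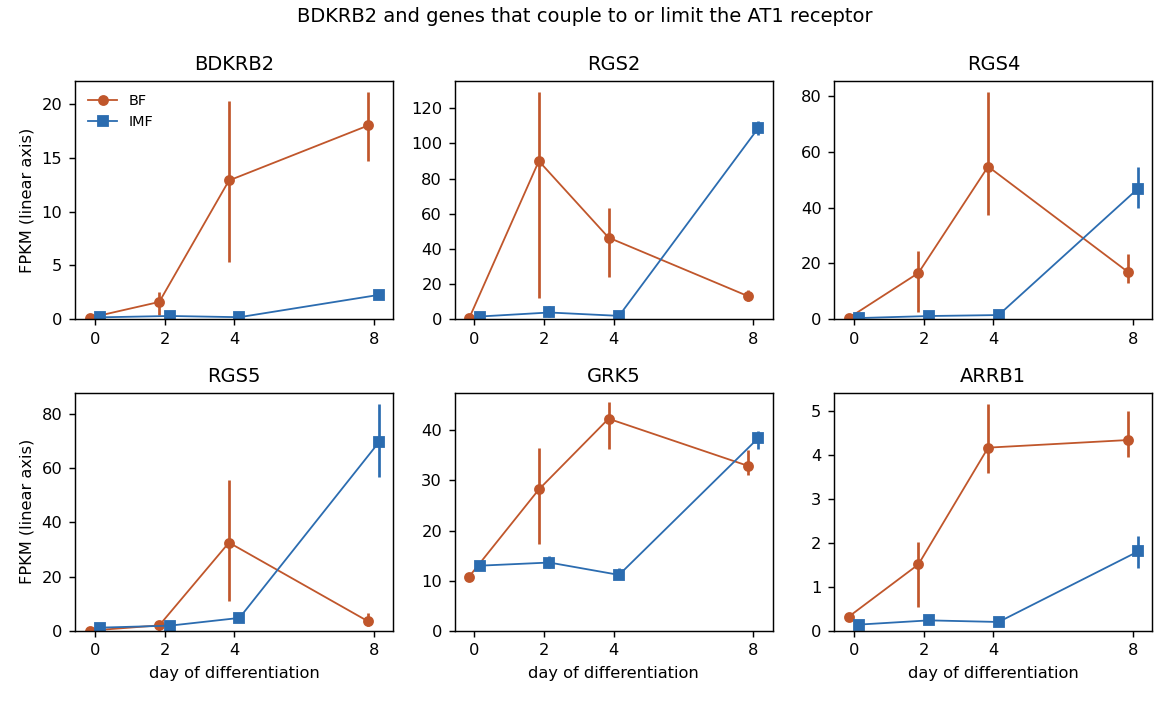
Group means (points) and the range of 3 libraries (bars) in FPKM on linear axes, by day, for BDKRB2, RGS2, RGS4, RGS5, GRK5 and ARRB1 in BF (circles) and IMF (squares). All 6 genes are higher on day 8 than on day 0 in both depots, and RGS2 peaks on day 2 in BF at a mean of 90.0 FPKM.

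The 12 genes that angiotensin II is known to raise in stromal cells moved in both directions. Over BF day 0 to day 8, 6 were higher, 3 lower and 3 not called, where 13.7% of all genes were called. Over IMF day 0 to day 8, 3 were higher, 4 lower and 5 not called, where 9.04% of all genes were called. IL6 (an inflammatory cytokine) rose by 8.75 in BF and 6.71 in IMF on the log2 scale, and PTGS2 (cyclooxygenase 2) by 8.51 and 7.13. The log2 change was -7.92 and -3.29 for ACTA2 (smooth muscle actin), -6.32 and -3.61 for CCN2 (a matrix-associated growth factor), and -2.77 and -1.58 for COL1A1 (type I collagen).

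Of 10 tested transcription factors known to act on AGT, 2 were higher, 1 lower and 7 not called over BF day 0 to day 8 (6.28% of all genes higher and 7.39% lower), and 2 higher and 8 not called over IMF day 0 to day 8 (4.56% and 4.49%). The lower gene was PPARG, the central adipogenic factor, which ranged from 2.57 to 3.33 FPKM in BF-0d and from 0.486 to 1.28 in BF-8d (log2 difference -1.04, adjusted p = 0.0061). CEBPB, an early adipogenic factor, rose in BF from 12.9 FPKM on day 0 to 39.7 on day 2 (1.53, adjusted p = 9.82e-05), and in IMF from 13.7 on day 4 to 36.1 on day 8 (1.3, adjusted p = 3.93e-04). CEBPA, of the same family, averaged 2.26 FPKM in BF-0d, 9.37 in BF-2d, 4.02 in BF-4d and 2.35 in BF-8d. Its mean went from 5.89 in IMF-4d to 1.76 in IMF-8d. The CEBPD mean went from 68.1 in BF-2d to 34.8 in BF-8d, and from 49.2 in IMF-4d to 33.6 in IMF-8d. NFKB1 rose over day 0 to day 8 by 1.67 in BF and 1.17 in IMF. NR3C1, the glucocorticoid receptor, was not called in any comparison. Of 7 tested glucocorticoid targets, 3 were higher and 0 lower over day 0 to day 8 in each depot, against 6.28% of all genes higher in BF and 4.56% in IMF. SGK1 rose from day 0 to day 2 in both (2.01 in BF and 1.55 in IMF), and DUSP1 in BF (2.51).

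Among 8 tested adipokines and other secreted adipocyte products, 4 were higher and 1 lower over BF day 0 to day 8 (6.28% and 7.39% of all genes), and 3 higher and 0 lower over IMF day 0 to day 8 (4.56% and 4.49%). CFD (adipsin) averaged 10.8 FPKM in BF-0d and 280 in BF-8d, and 1.34 in IMF-0d and 30.0 in IMF-8d. Of the untested genes in this list, LEP (leptin) reached at most 0.0313 FPKM in any library and RETN (resistin) was listed at 0 throughout. RARRES2 averaged 9.61 FPKM in BF-0d and 3.99 in BF-8d, and 12.0 in IMF-0d and 9.58 in IMF-8d. SERPINF1 averaged 250 FPKM in BF-0d and 130 in BF-8d, and 172 in IMF-0d and 187 in IMF-8d. Among 7 tested serpin relatives of AGT, 2 were higher and 1 lower over BF day 0 to day 8, and 1 higher and 1 lower over IMF day 0 to day 8, beside the same shares of all genes. SERPINE2 (protease nexin 1) rose in BF by 3.35 (adjusted p = 1.87e-09).

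The gene whose log2 level followed AGT most closely over the 24 libraries, of 10086 ranked, was CHN1, a Rac GTPase-activating protein (Pearson r = 0.977). CHN1 averaged 2.87 FPKM in BF-0d and 27.8 in BF-8d, and 1.51 in IMF-0d and 11.5 in IMF-8d, and it also ranked 1 by Spearman rho and by the 8 group means. MCOLN3, CYSLTR2, ADAMTSL4, MMP1, STEAP4, P2RY6, NPR3, HR and F11R followed, down to r = 0.952. The 5 genes that ran most opposite were IDI1 (r = -0.975), POLR2H, DHRS3, TRIM45 and SQLE, of which IDI1 and SQLE act in sterol synthesis. These values describe libraries that share depot and day, and inside the groups the likeness was weaker for all 15 genes. Among the 10 most like AGT it ran from r = -0.14 for HR, through 0.15 for CHN1, to 0.81 for MCOLN3. Among the 5 most opposite it ran from -0.79 for TRIM45 to -0.097 for IDI1 and 0.056 for SQLE. AGTR1 was followed most closely by PDE1A (0.961), S1PR2 and SEMA3D, ACE by APLN (0.918), KREMEN1 and PHACTR1, and LNPEP by SBF2 (0.954), SHPRH and POLK.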

How the data were processed

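Messenger RNA was sequenced in 24 libraries. The authors aligned reads to Sscrofa11.1 with HISAT2, assembled transcripts with StringTie 1.3.4d, and deposited 1 FPKM value per gene and library, which removes gene length and library size and keeps no read depth. Low FPKM values did not fall on whole-read steps, so no count model was used, and the test of the study was replaced.

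Values were compared as log2(FPKM + 1), which understates changes of low genes, for the 16135 genes with a summed FPKM above 1. limma 3.58.1 (R 4.3.3, eBayes with trend and robust) fitted the 8 group means over all libraries. p-values were adjusted by Benjamini-Hochberg over all genes tested. A gene was called at adjusted p under 0.01 and a log2 difference of at least 1 in size. The 16 comparisons were 8 intervals, 4 depot contrasts and 4 depot differences in change. The code was tested on simulated data.

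Symbols came from a table of pig gene names (14815 of 25462 rows matched). Members were always named, list genes where called or in an angiotensin list, and genes most like a member by Pearson r. The members and lists were chosen with earlier results of these data known. Alternatives covered the pseudocount, filters, scaling, libraries fitted, a replicate block, the eBayes options and leaving out each library. Coordinates and promoters came from RefSeq on Sscrofa11.1. Small RNA libraries were not analysed here. Some listed genes are counted but not reported here by name.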

Additional observations from a re-analysis of the deposited data

Results flagged for a closer look

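The changes of 3 members differed between depots by the test of the difference itself, the IMF log2 change minus the BF log2 change in the limma fit. For AGT it was -2.54 for day 2 to day 4 and 2.24 for day 4 to day 8. For AGTR1 it was -2.67 for day 4 to day 8. For ACE it was 2.60 for day 4 to day 8 and 2.13 for day 0 to day 8. All 5 kept their call in each of the 24 fits that left out 1 library. Groups of 3 libraries were too small for a test of single outlying libraries.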

How the results depend on the processing

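In fits restricted to the compared libraries, 3 AGT calls were lost at unchanged size: BF day 2 to day 4 (2.59, adjusted p = 0.106), BF day 4 to day 8 (1.93, adjusted p = 0.0413) and IMF against BF on day 2 (-1.22, adjusted p = 0.0174). The uncalled AGT change from day 0 to day 2 in BF turned sign with median ratio scaling (0.055) and quantile normalization (0.14), and ran from -0.13 to 0.14 over the fits that left out 1 library. The same interval of ACE turned sign with those scalings (0.00025 and 0.038) and ran from -0.39 to 0.34. LNPEP over BF day 0 to day 8 turned sign with median ratio scaling (0.070). Leaving out 1 library also turned the sign of uncalled ACE values, which ran from -0.26 to 0.63 for BF day 2 to day 4, from -0.0062 to 0.12 for IMF day 2 to day 4, and from -0.57 to 0.33 for the depot difference in the change from day 2 to day 4. The restricted fits hold 6 libraries in place of 24. For the other changes the cause was not tested.

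The fit with a replicate block left every call of AGT, AGTR1 and ACE in place, and LNPEP from day 0 to day 2 in BF lost its call (-1.08, adjusted p = 0.0136). Whether the numbers pair the samples stays unknown, since 3 pairs per comparison are too few to tell. In no comparison did all 3 same-numbered pairs correlate above 0.1. Over IMF day 0 to day 8, 2 of 3 did, with r from -0.16 to 0.46. In IMF against BF on day 2, 2 of 3 also did, with r from 0.080 to 0.19. The LNPEP call was also lost with a pseudocount of 0.1, no filter, quantile normalization, only the compared libraries, and eBayes without trend and robust. LNPEP on day 2 between depots was called with the stricter filter (1.10).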
